A study of Homo sapiens with 20 samples.

Results

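The members described here are 8 genes of Rac and actin cytoskeleton signalling that are best known from leukocytes: DOCK2, ELMO1, VAV1, FMNL1, LYN, RAC2, HCLS1 and WAS. They are 8 of the 46425 gene symbols in the tables deposited for HUDEP-2 cells, an immortalized line of human erythroid progenitors derived from umbilical cord blood. DOCK2, ELMO1, VAV1, FMNL1 and LYN were chosen by their loss of mRNA between day 0 and day 8 in these same libraries, and RAC2, HCLS1 and WAS were added as related partners of blood cells. The values of day 8 against day 0 are therefore a description, and the tests below use other days. The members were known to be low by day 8, so a fall on the days before is not independent of how they were picked.

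Wild-type HUDEP-2 cells were kept in medium with erythropoietin (EPO), stem cell factor (SCF), doxycycline and, per the study's methods, dexamethasone (day 0), or moved to differentiation medium and harvested on days 1 to 8 and on day 12. Every day of the differentiation medium contained holo-transferrin, AB human serum, heparin, insulin and EPO. Dexamethasone is not listed for that medium, so days 0 and 1 differ in it too. SCF was present up to its exclusion on day 6, and doxycycline up to its removal on day 8. Each of the 10 days had 2 libraries of poly(A) RNA, 1 from a table of all days and 1 from tables of separate days. The study describes its libraries from before and after differentiation as biological replicates, but the labels do not say that those of each day came from separate cultures, so the p-values measure the spread between libraries, which may be technical. All libraries come from this 1 immortalized line, which limits it as a model of erythroid cells.

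Rac GTPases switch between a GDP-bound and a GTP-bound form, and in the GTP-bound form they drive the growth of branched actin networks at the cell edge. In leukocytes, Src-family kinases such as LYN act below surface receptors, exchange factors such as VAV1 and the DOCK2-ELMO1 complex load Rac with GTP, and RAC2 is the Rac protein made mainly in blood cells. WAS (the Wiskott-Aldrich syndrome protein) activates the Arp2/3 complex, HCLS1 (HS1, a cortactin relative) binds Arp2/3-made branches, and FMNL1 is a formin that elongates unbranched filaments. Most of these genes have relatives that many tissues use, among them DOCK1, ELMO2, VAV2, FMNL2, YES1, RAC1, CTTN and WASL.

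Total counts per library were between 52131713 and 70358198, so that 3 counts, the limit that a count of 0 allows, equal 0.0426 to 0.0575 CPM (counts scaled to a fixed library total). These limits cover counting error only. In 2 libraries, those of days 7 and 8 from the separate tables, ribosomal RNA genes took 16.8% to 17.6% of the counts, against 0.737% to 2.68% in the other 18. Globin genes took 33.7% and 28.2% of the counts on day 12. Between the 2 libraries of a day, 65.3% to 78.0% of genes differed beyond sampling noise, so no pair was the same library. Of the 12 erythroid markers, 11 rose over days 1 to 6 by edgeR, against 12.4% of all genes. Of 14 leukocyte markers, CD3E, CD8A, MS4A1, MPO and ELANE had at most 3 counts in every library, and the 14 together summed to 3.5 to 3.83 TPM (transcript abundance per length, scaled to a fixed sum) on day 0 and 2.95 to 5.07 TPM on days 1 to 6.

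Promoter windows are shown for the members in which 1 fixed motif was found, to put the start sites and the sequence beside the expression values. The motif was GAGGAAGT, a site of the ETS type that the myeloid factor PU.1 is known to bind, searched on both strands of RefSeq windows (GRCh38.p14) with 250 bases before and 50 after a start site. The table held 10 windows for 6 members, and the motif lay in 3 of them, against 2.59% of the 35116 windows of all genes. ELMO1 and WAS had more than 1 window each, so the 10 windows are not 10 separate genes. Capitals mark the motif, and each sequence is written 5′ to 3′ on the strand of its gene.
VAV1, chr19:6772458-6772757, plus strand: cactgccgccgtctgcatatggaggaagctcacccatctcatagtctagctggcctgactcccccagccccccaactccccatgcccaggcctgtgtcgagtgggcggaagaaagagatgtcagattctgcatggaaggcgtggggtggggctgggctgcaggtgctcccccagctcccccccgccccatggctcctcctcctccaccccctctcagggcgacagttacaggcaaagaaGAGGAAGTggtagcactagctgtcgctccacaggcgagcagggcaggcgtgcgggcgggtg
ELMO1, chr7:37448815-37449114, minus strand: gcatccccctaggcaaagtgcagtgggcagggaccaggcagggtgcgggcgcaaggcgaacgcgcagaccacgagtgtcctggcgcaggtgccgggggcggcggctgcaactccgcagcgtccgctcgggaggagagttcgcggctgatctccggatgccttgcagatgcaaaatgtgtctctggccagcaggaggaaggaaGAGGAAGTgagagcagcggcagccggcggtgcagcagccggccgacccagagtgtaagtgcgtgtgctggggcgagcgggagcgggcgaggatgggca
FMNL1, chr17:45221635-45221934, plus strand: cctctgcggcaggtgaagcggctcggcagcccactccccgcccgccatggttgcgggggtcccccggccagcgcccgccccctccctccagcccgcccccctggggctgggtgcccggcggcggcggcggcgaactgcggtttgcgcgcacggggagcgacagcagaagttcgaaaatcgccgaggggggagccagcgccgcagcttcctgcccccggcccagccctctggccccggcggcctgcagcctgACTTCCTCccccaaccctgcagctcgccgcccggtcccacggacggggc

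In VAV1 the motif began 11 bases before the start site, and in ELMO1 48 bases before it. In FMNL1 the letters ACTTCCTC put the motif on the opposite strand, 1 base after the start site. Of the other motifs searched on both strands, the RUNX motif TGTGGT lay in 1 of the 10 windows (a WAS window) and in 13.1% of all windows, and the GATA motif AGATAA lay in 1 (an ELMO1 window) and in 10.3% of all. The short KLF motif CACCC was found in 7 of 10 windows and in 59.9% of all windows. A match of letters is a description and no sign of binding. RAC2 and LYN had no window, and neither did the middle group of ELMO1 starts described below.

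DOCK2, the exchange factor that activates Rac in lymphocytes and neutrophils, spans chr5:169637247-170083382 on the plus strand of hg38, the build of the tables. Its level was 28.6 and 29.8 TPM in the 2 libraries of day 0, given here and below as the library of the table of all days and then that of the separate tables. It was 19.1 and 15.9 TPM after 1 day, 5.52 and 3.49 TPM on day 3, and 1.40 and 0.973 TPM on day 6. The libraries of days 0, 1, 3 and 6 did not overlap, and from day 2 on both libraries were under 50% of the lower day 0 library. On day 7 DOCK2 was at 0.0225 and 0.133 TPM, which are 4 and 25 counts, and on day 12 at 0 and 0.0478 TPM. As in every bulk sample, fewer cells that express a gene and less of its RNA per cell cannot be told apart here.

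ELMO1, the partner that DOCK2 binds for Rac exchange, lies at chr7:36852906-37449326 on the minus strand. Its level was 57.2 and 56.0 TPM on day 0, 45.9 and 52 TPM after 1 day, 12.1 and 11.1 TPM on day 3 and 7.94 and 5.98 TPM on day 6. It was then 0.684 and 1.25 TPM after 7 days, 0.785 and 0.771 TPM on day 8 and 1.01 and 1.43 TPM on day 12. Both libraries of day 12 were above both of day 8, and relative to day 0 the mean was 1.37% on day 8 and 2.15% on day 12 by TPM, or 2.44% and 9.52% by normalized CPM. ELMO1 kept 279 and 308 counts on day 12, when DOCK2 had 0 and 14.

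VAV1, an exchange factor switched on by tyrosine phosphorylation, lies at chr19:6772708-6857366 on the plus strand. Its 2 libraries were at 8.53 and 13.5 TPM on day 0, 10.1 and 11.8 TPM after 1 day, 2.89 and 1.28 TPM on day 3 and 0.839 and 0.402 TPM on day 6. On days 7, 8 and 12 it had 0 counts in all 6 libraries. Days 0 and 1 overlapped, and day 1 was above day 3 in both libraries.

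FMNL1, the formin of blood cells, lies at chr17:45220268-45247322 on the plus strand. It stood at 12.4 and 13.7 TPM on day 0, 12.9 and 18.1 TPM after 1 day, 6.32 and 5.36 TPM on day 3 and 3.15 and 1.94 TPM on day 6. From there it went to 0.145 and 0.0812 TPM on day 7 and to 0 and 0.0202 TPM on day 12. FMNL1 was the last of the 5 picked genes to reach 50% of its lower day 0 library by TPM, on day 4.

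LYN, a Src-family kinase that acts below the EPO receptor and KIT in erythroid progenitors, lies at chr8:55876041-56014169 on the plus strand. On days 0 to 8 it was the member with the next highest TPM after RAC2, with 119 and 121 TPM on day 0, 82.3 and 86.4 TPM after 1 day, 55.1 and 54.7 TPM on day 3 and 36.6 and 30.3 TPM on day 6. LYN was at 9.66 and 7.61 TPM on day 7 and still at 7.72 and 5.90 TPM on day 8. On day 12 it was at 0.622 and 1.82 TPM, below every library of the days before. On each of days 0 to 5 its libraries lay within 5 TPM of each other.

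RAC2, the Rac GTPase of blood cells, lies at chr22:37225270-37244269 on the minus strand and was the most abundant member on every day. It was at 319 and 395 TPM on day 0, 343 and 595 TPM after 1 day, 319 and 368 TPM on day 3 and 264 and 293 TPM on day 6. On days 7 and 8 RAC2 was still between 155 and 191 TPM, and on day 12 it was at 19.8 and 35.7 TPM. The mean of day 8 was 45.9% of that of day 0 by TPM and 69.0% by normalized CPM, and both libraries were under 50% of the lower day 0 library only on day 12. On day 1 the library of the separate table stood far above the other.

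WAS and HCLS1 were the members with the lowest levels on day 0. WAS, at chrX:48683753-48691427 on the plus strand, was at 0.556 and 4.95 TPM on day 0, 0.185 and 3.90 TPM after 1 day and 0.0431 and 0.296 TPM on day 6, and had 0 counts in both libraries of day 12. The 2 libraries of days 0 and 1 thus differed by a larger ratio than the libraries of the table of all days did between day 1 and day 6. HCLS1, at chr3:121631399-121660903 on the minus strand, had 41 and 6 counts on day 0 and 20 and 0 on day 1. It had 0 counts in 9 of the 10 libraries of days 5 to 12, and the other, of day 7, had 3. With so few counts a change of HCLS1 could not be resolved at this depth.

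For the contrast by which 5 of the members were picked, the levels of day 8 were 0.138% of day 0 for DOCK2, 1.37% for ELMO1, 0.652% for FMNL1 and 5.68% for LYN by mean TPM, and VAV1 had 0 counts. In that contrast 19.4% of all genes tested were lower, and no test of the members is drawn from it.

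The first comparison asked which members fell from day to day up to the day on which SCF was excluded, as a slope over the 12 libraries of days 1 to 6. The 2 exchange factor genes VAV1 and DOCK2 had the steepest slopes among the members other than HCLS1. VAV1 had a slope of -0.83 on the log2 scale per day (SE 0.10, adjusted p = 8e-05, edgeR quasi-likelihood test) and DOCK2 one of -0.80 (SE 0.06, adjusted p = 3e-06). The slope of ELMO1 was -0.57 per day, that of FMNL1 -0.51 and that of LYN -0.26, each with an adjusted p under that of VAV1. In all, 6 of the 8 members were lower by edgeR with an adjusted p under 0.05, against 15.4% of the 15673 genes tested, and their median slope was -0.63, against -0.00131 for all genes. The 6 include the 5 genes picked for their loss by day 8, so the count is not independent of how they were picked. The calls of these 5 held in all 9 alternatives with a test and without each library in turn. Over all genes edgeR called 2421 lower and 1940 higher, and limma on log2(TPM + 1) 3140 lower and 1200 higher.

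WAS completed the 6, with a slope of -0.68 per day (SE 0.22, adjusted p = 0.032, edgeR), and it rested on the day 1 library of the separate table, without which the slope was -0.35 (adjusted p = 0.36). It was not called either without the day 2 library of that table (adjusted p = 0.052), without the day 6 library of the table of all days (adjusted p = 0.07), or by limma on TPM (adjusted p of 0.079 and 0.099). RAC2 had a slope of -0.11 per day (SE 0.04, adjusted p = 0.065, edgeR), and HCLS1 one of -1.12 (SE 0.43, adjusted p = 0.067). RAC2 passed the threshold in 4 of 9 alternatives, with adjusted p from 0.01 to 0.081 over them. Without the day 1 library of the separate table, the highest of its 20 values, the slope of RAC2 was -0.03 (adjusted p = 0.43).

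From day 1 to day 6, with all 20 libraries in a single edgeR fit, 5 of the 8 members were lower, against 3.44% of 16784 genes. These were the 5 picked for their loss by day 8, so the count is not independent of how they were picked. The members had a median log2 fold change of -2.59 with HCLS1 at its bound, against -0.01 for all genes. The log2 fold change was -4.04 for VAV1 (SE 0.70, adjusted p = 0.0085), -3.78 for DOCK2 (SE 0.59, adjusted p = 0.0025) and -2.65 for ELMO1 (SE 0.21, adjusted p = 2.9e-05). For FMNL1 it was -2.53 (SE 0.38, adjusted p = 0.0022, edgeR) and for LYN -1.24 (SE 0.24, adjusted p = 0.0089, edgeR). RAC2 had a log2 fold change of -0.66 (SE 0.26, adjusted p = 0.16) and WAS one of -3.25 (SE 1.63, adjusted p = 0.29), so that neither was called. Without the day 6 library of the separate table DOCK2 (adjusted p = 0.054), VAV1 (adjusted p = 0.1) and LYN (adjusted p = 0.092) were no longer called by edgeR. VAV1 (adjusted p = 0.055) and LYN (adjusted p = 0.085) were lost without the day 1 library of that table, and LYN (adjusted p = 0.058) without the day 6 library of the table of all days. ELMO1 and FMNL1 were called without any 1 of the 4 libraries. Over all genes edgeR called 578 lower and 570 higher, whereas limma on log2(TPM + 1) called 1221 lower and 320 higher.

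The step from day 6 to day 7, after SCF was left out of the medium, was added as a comparison after the values had been seen. In counts with 3 added, it was the largest step between neighbouring days for DOCK2, ELMO1, VAV1 and FMNL1 in both sets of libraries. ELMO1 went from 1052 and 1025 counts on day 6 to 110 and 184 on day 7, and FMNL1 from 468 and 375 to 26 and 15. DOCK2 went from 226 and 205 counts to 4 and 25, and VAV1 from 65 and 41 to 0 and 0. The libraries of the 2 days did not overlap in any of these 4 genes. The share of all genes without such overlap, or with their largest step here, was not computed. Neither pattern is therefore shown to be particular to these 4 genes, which were picked for their loss by day 8.

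In the edgeR fit of all days, the log2 fold change of FMNL1 was -4.0 (SE 0.44, adjusted p = 0.00073) and that of DOCK2 -3.51 (SE 0.67, adjusted p = 0.016). That of ELMO1 was -2.45 (SE 0.21, adjusted p = 0.00021, edgeR) and that of LYN -1.62 (SE 0.25, adjusted p = 0.0055). VAV1 was at least 13.9-fold lower (adjusted p = 0.013, edgeR), computed against 3 counts per library, or at least 9.86-fold from its lower day 6 library. RAC2 had a log2 fold change of -0.24 (SE 0.26, adjusted p = 0.66). These are 5 of 8 members lower, against 1.69% of 16784 genes, and the members' median was -2.03 against 0 for all genes. The 5 are the genes picked for their loss by day 8, so the count is not independent of how they were picked. RAC2, HCLS1 and WAS were not called. A fit of the 4 libraries of these days alone called 0 genes of 14344 (2310 at an unadjusted p under 0.05, edgeR), while DESeq2 in all 20 libraries called 1057 lower. The day 7 library of the separate tables is one of the 2 with high ribosomal RNA, and without it VAV1 (adjusted p = 0.11) and LYN (adjusted p = 0.066) were no longer called by edgeR, while DOCK2 (at -5.37), ELMO1 and FMNL1 were. DOCK2 and VAV1 were not called without the day 6 library (adjusted p of 0.11 and 0.086) or the day 7 library (0.069 and 0.058) of the table of all days, the latter with DOCK2 at -2.72. By limma on log2(TPM + 1) 1538 genes were lower and 117 higher, against 283 and 148 by edgeR. Removal of SCF and the passage of a further day cannot be told apart in this design.

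Between day 6 and day 12, 6 of the 8 members were lower, against 36.2% of 16784 genes (median log2 fold change of -2.25 with 3 members at their bounds, against -0.24 for all genes). The 6 were RAC2 and the genes picked for their loss by day 8, so the count is not independent of how they were picked. Removal of SCF, removal of doxycycline on day 8 and the passage of further days cannot be told apart here. RAC2 had a log2 fold change of -1.52 (SE 0.26, adjusted p = 0.0002, edgeR), the first comparison in which it was called, and LYN one of -2.98 (SE 0.26, adjusted p = 3.2e-07). FMNL1 was at -5.97 (SE 0.56, adjusted p = 6e-07, edgeR) and DOCK2 at -3.8 (SE 0.74, adjusted p = 0.00048) on the same scale, but both genes had 0 counts in the day 12 library of the table of all days, and these sizes rest on the other. Without the library at 0 the values were -5.06 for FMNL1 and -2.87 for DOCK2, and without the other day 12 library, where the day is at 0 counts alone, no fold is measured. The change of LYN was -2.53 without the day 12 library of the table of all days and -3.71 without the other. All 3 genes were called without each library. VAV1 was at least 8.03-fold lower (adjusted p = 0.00077, edgeR).

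ELMO1 had the smallest of the called changes, -0.67 on the log2 scale (SE 0.20, adjusted p = 0.011, edgeR), which was not called with upper-quartile scaling (adjusted p = 0.073), in a fit of these 4 libraries alone (adjusted p = 0.075) or without the day 6 library of the table of all days (adjusted p = 0.07). On the TPM scale the fall of ELMO1 was larger, from 7.94 and 5.98 to 1.01 and 1.43 TPM. The 2 scales part on day 12 for all genes: edgeR called 6081 lower and 4629 higher, and limma on log2(TPM + 1) 10184 lower and 1564 higher. The comparisons of days 1, 7 and 12 share the day 6 libraries and are not independent of each other.

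The transcripts of the tables differed in how they were lost, with the reservation that the authors' program divided reads among overlapping transcripts by estimation. ELMO1 has 12 transcripts in the tables with starts in 3 groups: 5 start between 37448950 and 37449326 on chromosome 7 (the far start), 4 between 37343174 and 37353668 (the middle start), and 3 make short transcripts from 36985112 to 36986266. The far start is the group nearest to the ELMO1 promoter window printed above. That window was set on a start site at 37448864, and on the minus strand all 5 far starts come before this site. The motif, 48 bases before the site, lies after all 5 starts and not ahead of them. The middle start, which had no window, carried 63.7% of the ELMO1 counts of days 0 to 6. On days 0 to 6 the far start carried 26.0% to 54.0% of the ELMO1 counts of a library, with a median of 34.9% over 14 libraries.

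On day 6 the share of the far start was 28.1% (95% Wilson interval 25.5% to 30.9%) and 46.9% (43.9% to 50%). On day 7 it was 6.36% (3.12% to 12.6%) and 2.72% (1.17% to 6.20%), from 7 of 110 and 5 of 184 counts, and on day 8 it was 5.98% and 4.46%. All 4 libraries of days 7 and 8 thus lay below all 14 of days 0 to 6. On day 12 the libraries parted, with 0 of 279 counts (up to 1.36%) and 58 of 308 (18.8%, 14.9% to 23.6%). The middle start carried 93.6% to 97.3% of the counts on days 7 and 8, and the remaining ELMO1 mRNA of the late days was mostly of this group. These shares compare libraries, and no test over days was made of them.

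The leading transcripts of DOCK2 and FMNL1 also had no counts on days 7 and 8, but that of DOCK2 did not have the timing of the ELMO1 far start. NM_004946, the 6069-base DOCK2 mRNA, had 95.8% to 99.8% of the DOCK2 counts of each library of days 0 to 4. On day 5 it had 0 of 265 and 0 of 237 counts, and on day 6 it had 226 of 226 counts in 1 library and 0 of 205 in the other, so the share parted fully between libraries of the same day before it was 0 of the 47 counts of days 7 and 8, which allows up to 6.38%. What part the division of reads among transcripts has in these shares was not tested. XM_006722070 had 39.7% to 89.1% of the FMNL1 counts of a library on days 0 to 6 and 0 of the 76 counts of days 7 and 8, which allows up to 3.95%. NM_005892, whose start has the FMNL1 window printed above, had 2.01% of the FMNL1 counts of days 0 to 6. The few late counts of these genes were assigned to other transcript models.

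For VAV1, NM_005428 held 76.1% of the counts of days 0 to 6. RAC2 came almost wholly from NM_002872, which had 99.2% to 99.9% of its counts in every library, so that its slow decline was that of 1 mRNA. LYN has 2 curated mRNAs that differ by 63 bases in length, and the shorter, NM_001111097, took 24.6% to 47.6% of their summed counts on days 0 to 6 and 25.5% to 42.1% on days 7 and 8. On day 12 it took 10.7% in 1 library and 39.6% in the other, so no shift of LYN isoforms went beyond the spread of the libraries.

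Paralogs of the members, 15 genes that make related proteins, were followed to see what remained. Over days 1 to 6, 3 of them were lower (DOCK1, SRC and YES1) and 2 higher (ELMO3 and WASL) by edgeR, against 15.4% and 12.4% of all genes, so that both shares were near the background, and their median slope was -0.02. From day 6 to day 7, 0 of the 15 passed the edgeR test (1.69% of all genes were lower). DOCK1 was close to undetected, at 0.138 TPM or less on every day.

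By TPM, DOCK2 made up 96.1% ± 3.81 (SD, n = 2) of the sum of DOCK2, DOCK1 and DOCK5 on day 0, and 63.4% ± 16 on day 6, with the sum itself falling from 30.4 to 1.99 TPM. On day 12 that sum was 0.0289 TPM, so that all 3 genes were close to undetected. ELMO1 went from 74.7% ± 1.34 of the ELMO sum on day 0 to 30.9% ± 2.67 on day 6 and 5.93% ± 1.78 on day 7. ELMO2 (8.31 and 7.72 TPM on day 6, 5.62 and 6.42 on day 12) and ELMO3 (7.94 and 6.88 TPM on day 6, 6.40 and 7.41 on day 12) made up the rest.

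VAV1 held 43.6% ± 22.6 of the VAV sum on day 0 and 7.80% ± 2.44 on day 6. VAV2 was at 4.22 and 5.56 TPM on day 6 and at 0.142 and 0.176 TPM on day 12, and VAV3 had 0 counts on day 12, so that the whole VAV sum was down to 0.159 TPM. FMNL1 went from 85.7% ± 3.00 of the FMNL sum on day 0 to 51.8% ± 17.8 on day 6 and 5.33% ± 3.67 on day 7. FMNL2 moved the other way, from 0.103 and 0.161 TPM on day 6 to 2.11 and 3.43 TPM on day 12, where it held nearly all of the family's mRNA.

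LYN held 77.9% ± 4.88 of the sum of LYN, SRC, FYN and YES1 on day 0, 59.1% ± 3.13 on day 6 and 10.5% ± 2.59 on day 12. YES1 was at 26.9 and 14.8 TPM on day 6 and at 4.36 and 7.42 TPM on day 12, and FYN was at 2.12 and 5.36 TPM on day 12. RAC2 kept 63.6% ± 0.69 of the Rac sum on day 0, 60.0% ± 1.06 on day 6 and 51.1% ± 2.73 on day 8, then 20.4% ± 5.05 on day 12. RAC1, the Rac of all tissues, was at 169 and 199 TPM on day 6 and at 98.0 and 113 TPM on day 12. The ratio within a family does not depend on library scaling, and it shows that RAC2 and RAC1 changed unequally between days 6 and 12 in both libraries.

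HCLS1 never made up more than 0.965% of the sum with CTTN (cortactin), which was at 69.7 and 65.0 TPM on day 0 and 10.6 and 12.9 TPM on day 12. WAS was 40.7% of the sum with WASL in 1 library of day 0 and 7.46% in the other. In both of these pairs the gene of all tissues was the more abundant one on every day in both libraries.

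Between day 6 and day 12, edgeR called 6 of the 15 paralogs lower (DOCK5, VAV2, VAV3, FMNL3, RAC3 and CTTN), against 36.2% of all genes, and 5 higher, against 27.6%. Of ELMO2, ELMO3, FMNL2, RAC1 and WASL, the 5 called higher, ELMO2, ELMO3, RAC1 and WASL had negative changes on log2(TPM + 1) (-0.36, -0.0896, -0.79 and -0.72), and only FMNL2 was higher on both scales. The calls of day 12 are thus relative to the library scaling, with a median of all genes at -0.24 in the edgeR fit and at -0.94 on log2(TPM + 1).

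Other genes of the pathway were described by lists. Of 15 tested actin and adaptor genes of blood cells, 9 fell and 0 rose over days 1 to 6 by edgeR (median slope -0.23), against 15.4% of all genes lower and 12.4% higher. Among those that fell were CORO1A (coronin 1A), MYO1F (a class I myosin) and LCP1 (the actin-bundling protein L-plastin).

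Of 12 tested tyrosine kinase signalling genes, 8 fell and 1 rose (median slope -0.13), against the same 15.4% and 12.4% of all genes. PTPN6, the phosphatase SHP-1, had a slope of -0.72 on the log2 scale per day, from 39.6 and 44.2 TPM on day 1 to 5.88 and 0.970 TPM on day 6. LAT2 and LCP2, both adaptors below immune receptors, had slopes of -0.71 and -0.46 per day. GRAP2, an adaptor known from T cells and megakaryocytes, rose by 0.51 per day, from 3.38 and 1.67 TPM to 10.4 and 12.5 TPM, and was at 11 and 14.6 TPM on day 12.

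The effectors that many tissues share were described in the same way, with no test between lists. Of 12 WAVE complex and PAK kinase genes 6 fell and 2 rose (median slope -0.06), with CYFIP1 at -0.30 per day, BAIAP2 at -0.29 and WASF3 at -0.20 among those that fell, and PAK1 (0.12) and WASF2 (0.08) those that rose. Of the 9 genes of the Arp2/3 complex 4 fell and 1 rose (median slope -0.12). Of all genes, 15.4% were lower and 12.4% higher, so in both lists the share that fell was above that of all genes. ARPC1B, the Arp2/3 subunit prominent in blood cells, had a slope of -0.28 on the log2 scale per day, and its paralog ARPC1A one of 0.11. In TPM, ARPC1B went from 146 and 171 on day 1 to 63.3 and 44 on day 6 and 0.420 and 1.06 on day 12, while ARPC1A was at 22.6 and 28.2 on day 12.

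**Figure D1:**
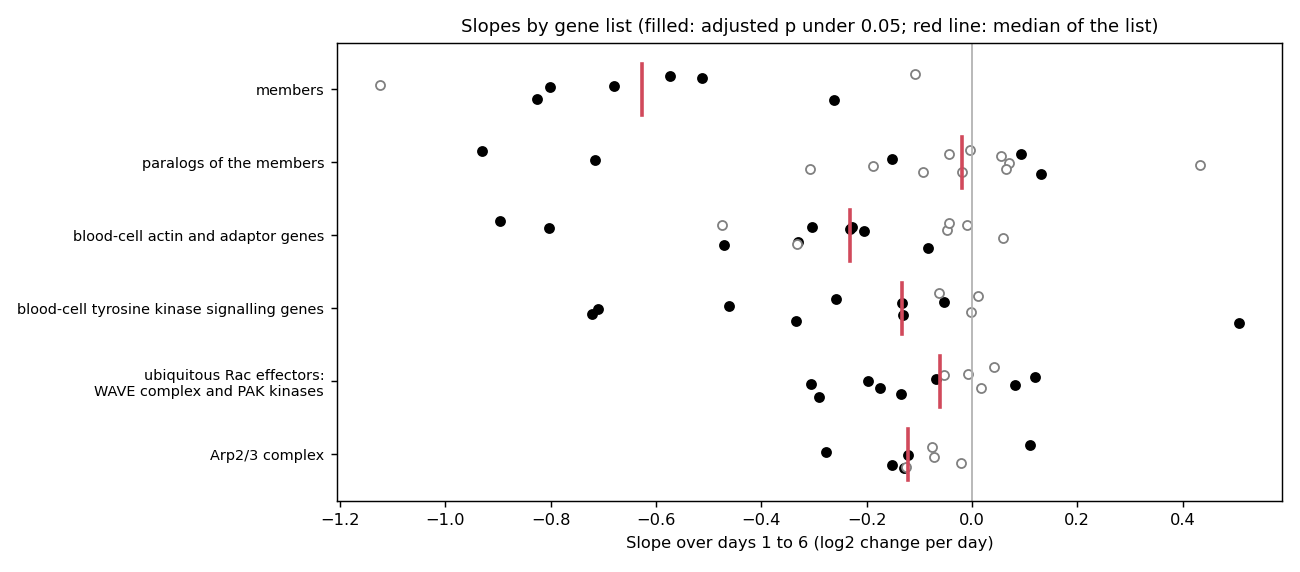
Slope over days 1 to 6 (log2 change per day) of each tested gene, by list, with filled points for an adjusted p under 0.05 by edgeR and a red line for the median of the list. The members' median is -0.63, those of the 2 blood-cell lists are -0.23 and -0.13, and those of the ubiquitous lists are -0.06 and -0.12.

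Some markers of another lineage moved with the members. The 7 mast cell and basophil markers, nearly all of it TPSAB1 and TPSB2, summed to 1151 and 2132 TPM in the day 0 libraries. On day 0 TPSAB1 was at 527 and 1009 TPM and TPSB2 at 614 and 1114 TPM. The sum was between 145 and 2879 TPM on days 1 to 6, and 8.10 TPM or less from day 7 on. TPSAB1, a mast cell tryptase gene, was at 510 and 1390 TPM on day 1 and at 70.8 and 124 TPM on day 6, and 1 of the 7 markers, CMA1, had at most 3 counts in every library. HDC had at most 5 counts in any library and FCER1A at most 8. All 4 of these markers that could be tested fell over days 1 to 6 by edgeR, against 15.4% of all genes. In day 6 against day 1 only 1 of the 4 was lower (3.44% of all genes), and in day 7 against day 6 it was 2 of the 4 (1.69%). Of the leukocyte markers, 1 of 6 tested fell over days 1 to 6 (LYZ), which is near the share of all genes. The 6 megakaryocyte markers, nearly all of it ITGA2B, summed to 10.7 and 69.0 TPM on day 0, to 2.58 and 7.93 TPM on day 6 and to 0.150 and 0.774 TPM after 7 days, so the sum went down over the same days as the members. ITGA2B, an integrin subunit of megakaryocytes and the 1 marker tested, had a slope of -0.55 over days 1 to 6 (adjusted p = 0.051, edgeR) and was not called between days 6 and 7 (adjusted p = 0.29), and 4 of the markers (PF4, PPBP, GP1BA and VWF) had at most 3 counts in every library. The part of cells with such markers in the loss of the members was not tested.

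The genes whose log2 normalized CPM was most like that of a member were found by Pearson's r over the 20 libraries, among 16784 genes. These values describe a shared time course, since all libraries share the days and the culture. For LYN they were IQGAP1 (r = 0.99), FMNL1 (r = 0.99) and SETD7 (r = 0.99), and for FMNL1 they were LYN, ZNF792 and MSN, all at r = 0.99. DOCK2 was nearest to SEC24D, FBXL19 and CSF2RB, the last encoding the common beta chain of the IL-3, IL-5 and GM-CSF receptors, all at r = 0.98. ELMO1 was nearest to ANXA6, SPI1 (which encodes PU.1) and LITAF, all at r = 0.98.

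VAV1 was nearest to ENO1 (r = 0.99), ARHGDIB (r = 0.98) and GMIP (r = 0.98). RAC2 was nearest to RASA3 (r = 0.98), PLP2 (r = 0.97) and NDUFC2 (r = 0.97), and shared less with ELMO1 (r = 0.51) than with LYN or FMNL1 (r = 0.85 each). WAS was nearest to CKMT1B (r = 0.95), IGFBP7 (r = 0.93) and CKMT1A (r = 0.93), and HCLS1, with few counts, to C2CD4B (r = 0.91), LGALS12 (r = 0.86) and EFHC2 (r = 0.85). CKMT1A and CKMT1B are near-identical copies whose reads cannot be told apart with certainty.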

How the data were processed

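HUDEP-2 RNA-seq libraries were made by the authors with a stranded poly(A) kit, trimmed with Trimmomatic 0.38, aligned to hg38 with HISAT2 2.1.0 and quantified with StringTie 2.1.3b, versions per the labels. The deposited counts are whole numbers per RefSeq transcript without normalization, and the deposited TPM were scaled by the authors for transcript length and library. Of the library columns, 40 entered the analysis, and 23 (FPKM and the day 0 columns beside day 12) did not.

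Transcript values were summed by gene symbol to 46425 genes. Counts were tested with edgeR 4.0.16 (filterByExpr, TMM, glmQLFit, glmQLFTest): a slope over 12 libraries of days 1 to 6, and contrasts of days in 1 fit of 20 libraries, with Benjamini-Hochberg adjustment over all genes tested and a threshold of 0.05. The study names the exact test of edgeR, which was run as an alternative. Normalized CPM are counts over TMM-scaled totals. Scripts were tested on simulated data. Alternatives were DESeq2 1.42.0, limma 3.58.1 on log2(TPM + 1) and log2(TPM + 0.1), other scalings and filters, a block for the deposited table, fewer libraries, and each library left out in turn. Genes named are all members and paralogs, of each list the called genes with the 3 largest slopes each way, and the 3 genes most like each member. The members and lists were chosen with earlier results of these data known, and some items are not reported here.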

Additional observations from a re-analysis of the deposited data

How the results depend on the processing

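No paired analysis was possible because the columns carry no replicate numbers, so the deposited table of a library, which no label names as a shared culture or day, was used as a block instead. The number of members called lower over days 1 to 6 was 6, and 5 to 7 with 1 library left out. It was 6 for day 12 against day 6, and 5 to 6 with 1 library left out, 5 for day 6 against day 1, and 2 to 6, and 5 for day 7 against day 6, and 3 to 5. Requiring 10 counts in every library removes genes that reach 0, and left 2 members called from day 1 to day 6, 3 from day 6 to day 12 and 2 from day 6 to day 7. With only the libraries of both days, 0 members and 0 genes were called from day 6 to day 7, with 2 libraries a day to estimate the spread.

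Over all genes, the number called lower over days 1 to 6 was 2421, 3914 with the table as a block, and 1782 to 2417 with 1 library left out. From day 1 to day 6 it was 578, with 1149 by DESeq2, 1221 and 991 by limma on log2(TPM + 1) and log2(TPM + 0.1), 1551 with the block, 95 with the libraries of both days only, 909 by the exact test of edgeR and 93 to 456 with 1 library left out. For day 12 against day 6 it was 6081, with 10184 and 10780 by limma and 5376 to 5849 with 1 library left out. For day 7 against day 6 it was 283, with 1057 by DESeq2, 1538 and 1430 by limma, 1345 with the block, 663 by the exact test and 63 to 152 with 1 library left out. The cause of these shifts was not tested.

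From day 6 to day 12 the sign turned on the TPM scale, with a pseudocount of 1 and then 0.1, for ELMO2 (-0.36 and -0.41), ELMO3 (-0.0896 and -0.10), YES1 (-1.64 and -1.79), RAC1 (-0.79 and -0.80) and WASL (-0.72 and -0.83). VAV1 was not called on log2(TPM + 1) from day 6 to day 12 (adjusted p = 0.1, limma) or to day 7 (adjusted p = 0.23, limma), a scale on which its day 6 level is close to the pseudocount. Both TPM and normalized CPM levels were computed for each member, and the first day under 50% of day 0 was 3 by TPM and 4 by normalized CPM for LYN, and 5 and 8 for HCLS1.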
